A study of Mus musculus with 4 samples.

Results

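The genes described here handle thyroid hormone in the cerebellum: Dio2 and Dio3 activate and inactivate it, Slco1c1 carries it, Thra, Thrb, Rxra and Rxrg form its nuclear receptors, and Klf9 and Hr respond to it. They are 9 of the 28632 gene names on the array and were measured by 15 of its 41174 probes. The set was chosen from these same arrays, because Dio2 was already known to be lower in the mutants, and the question asked was whether thyroid-responsive cerebellar genes followed. The members' ratios are therefore given as a description, with no test.

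RNA came from whole cerebella of mice at postnatal day 30. Mutants were mGfap-Cre; Dicer flox/flox and controls were mGfap-Cre; Dicer +/flox littermates, so both genotypes carried the Cre and at least 1 floxed allele, and no Cre-free or wild-type animals were compared. The Cre came from line mGfap-cre 73.12, driven by a mouse Gfap promoter, on a mixed background. Each of 4 arrays held 1 mutant and its control littermate, from 4 biologically independent pairs, with the mutant in Cy5 for pairs 1 and 3 and in Cy3 for pairs 2 and 4. Whole tissue was used, so fewer cells of a type and less RNA per cell cannot be told apart. Dicer1, the gene of the enzyme that matures microRNAs, had a log2 ratio of mutant over control of 0.04 ± 0.22 (SD, n = 4) with 1 probe and -0.06 ± 0.18 with the other; neither source used here says whether these probes lie in the deleted part, so they check nothing about the labels.

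Thyroid hormone circulates mainly as the prohormone T4. In the brain, the deiodinase encoded by Dio2, made mostly by astroglia, removes an iodine from T4 to give the active hormone T3, while the deiodinase encoded by Dio3, made mostly by neurons, degrades both hormones. T3 enters nuclei and binds the receptors encoded by Thra and Thrb, which sit on DNA with a retinoid X receptor as partner and turn on genes such as Klf9 and Hr. In the developing cerebellum T3 is known for its part in Purkinje cell dendrite growth, granule cell migration and myelination.

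The probe that carries the Dio2 result and the probes in which the receptor Thra and the target Klf9 can be compared with it are shown first, 5′ to 3′ in the sense direction of the transcript. The Dio2 probe is given by its first 30 bases, and the Thra and Klf9 probes, which are the upstream ones of the pair each gene has, are given whole.
Dio2 probe A_51_P208603: aatgataactactgacgaaagagctgtctg
Thra probe A_52_P666930: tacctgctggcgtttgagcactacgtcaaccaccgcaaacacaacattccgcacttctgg
Klf9 probe A_52_P675996: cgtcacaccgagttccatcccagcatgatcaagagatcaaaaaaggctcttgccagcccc
The file places the Dio2 probe at chr12:91963235-91963294 in mm9, on the minus strand and at base 5512 of the transcript. The Thra probe lies at chr11:98625642-98625701 and base 1462, and the Klf9 probe at chr19:23239337-23239396 and base 1198. Exon and UTR boundaries in mm9 were not used here.

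The 250 bases before the start of Dio2, at chr12:90739039-90739288 on the minus strand of GRCm38.p6 from RefSeq, are shown because Dio2 was the member with the lowest ratio. The capitals mark the cAMP response element TGACGTCA, a palindrome that starts 95 bases before the start of the gene.
Dio2 upstream: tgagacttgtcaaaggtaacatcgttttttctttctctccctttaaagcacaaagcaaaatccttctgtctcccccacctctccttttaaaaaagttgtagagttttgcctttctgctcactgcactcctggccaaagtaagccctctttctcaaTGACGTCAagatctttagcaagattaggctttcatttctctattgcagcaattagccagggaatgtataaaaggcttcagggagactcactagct
That element was found in 1.79% of 32851 promoter windows of 300 bases and was looked for only after the Dio2 values were known. Promoters were matched for 7 of the 9 members, in 10 windows. The hexamer AGGTCA, the core sequence bound by thyroid hormone receptors, was sought on both strands and lay in 3 of these windows, 1 each of Thrb, Rxra and Rxrg, against 16.3% of all windows. The direct repeat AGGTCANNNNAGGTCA, which holds the hexamer at either end, lay in none of the 10 and in 0.0152% of all windows.

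Dio2 was lower in every mutant than in its control littermate. Its normalized log2 levels were 12.21, 12.39, 11.95 and 11.91 in the controls of pairs 1 to 4 and 11.17, 11.56, 11.23 and 10.97 in the mutants. The highest mutant lay below the lowest control, so the groups did not overlap. The log2 ratios of mutant over control were -1.04, -0.83, -0.73 and -0.95, with a mean of -0.89 ± 0.14 (SD, n = 4), and the mutants held 54.1% of the control level. The mean was -0.88 with the mutant in Cy5 and -0.89 with it in Cy3, so the dye orders gave nearly the same value. Only 28 of the 18025 genes tested, or 0.155%, had a lower mean ratio. The fall of Dio2 chose the set, so nothing is read from this rank. For the other members the share of genes with a lower mean ran from 1.85% (Dio3) to 35.9% (Thra).

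**Figure D1:**
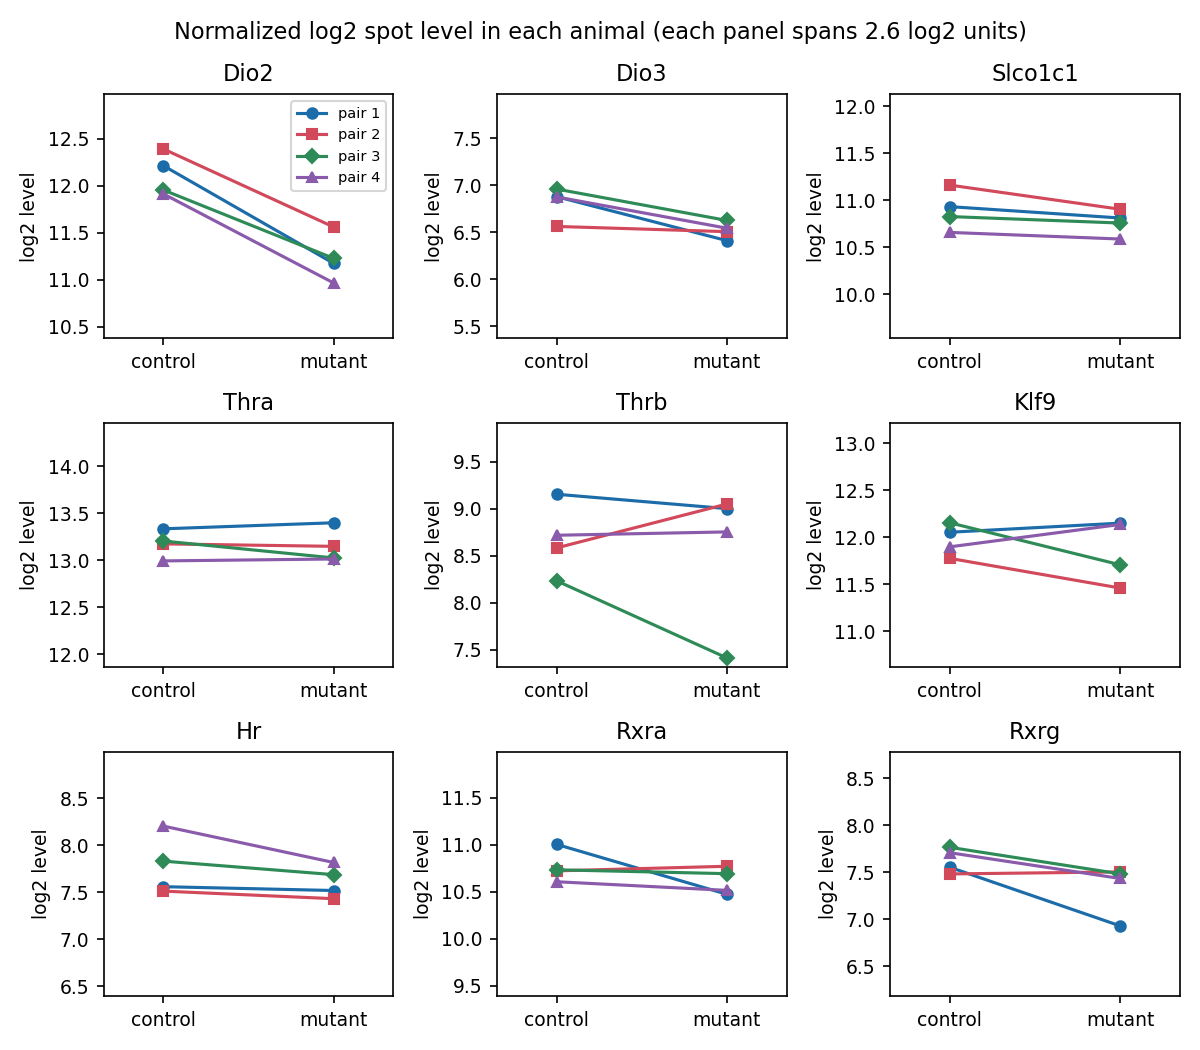
Normalized log2 spot level (vertical axes) in each control and mutant for the brightest probe of each member; a line joins the animals of 1 littermate pair and each panel spans the same number of log2 units. The Dio2 lines run from 11.91 to 12.39 in controls down to 10.97 to 11.56 in mutants, and in the other panels the groups overlap.

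Dio3, whose product inactivates T4 and T3, was dim. Its log2 levels were 6.88, 6.56, 6.96 and 6.88 in the controls and 6.41, 6.51, 6.63 and 6.54 in the mutants, and it was well above background in the control channel of 4 arrays but in the mutant channel of only 3. The ratios of -0.47, -0.06, -0.33 and -0.33 averaged -0.30 ± 0.17 (SD, n = 4), or -0.40 with the mutant in Cy5 and -0.19 with it in Cy3. All were below 0, but the level of the control of pair 2 lay inside the range of the mutants. It passed the filter only through the control channels, where it was higher. The mean moved with the processing, to -0.75 with the scanner software's processed signals and to -0.19 with outlier flags applied after the background correction.

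Slco1c1 encodes the transporter that brings T4 across the blood-brain barrier and is found in brain endothelium and astroglia. Its log2 levels were 10.93, 11.16, 10.83 and 10.66 in the controls and 10.81, 10.90, 10.76 and 10.59 in the mutants. Every mutant was slightly lower than its littermate, while the groups overlapped. The ratios were -0.12, -0.26, -0.07 and -0.07, a mean of -0.13 ± 0.09 (SD, n = 4). The probe spans a splice junction on chromosome 6, between 141511731 and 141513094 in mm9.

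Thra, the receptor gene most widely expressed in brain, was read by 2 probes that lie 714 bases apart in the transcript. The brighter one, at chr11:98626356-98626415, gave log2 levels of 13.33, 13.17, 13.20 and 12.99 in the controls and 13.40, 13.15, 13.02 and 13.01 in the mutants. Its ratios of 0.06, -0.03, -0.18 and 0.02 averaged -0.03 ± 0.11 (SD, n = 4), and the groups overlapped. The upstream probe printed above gave -0.20, -0.31, -0.56 and -0.02, a mean of -0.27 ± 0.23. The brighter probe was higher than the other by 0.26, 0.29, 0.38 and 0.04 on the log2 scale, or 0.24 ± 0.14, so the probes of Thra disagreed in the same direction on all 4 arrays. Thra makes transcripts with different 3′ ends, and which of them each probe reads was not determined.

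Thrb, the receptor gene with the more restricted expression, had 4 probes, of which 1 passed the filter on dim spots. That probe, at chr14:18868800-18868859, gave log2 levels of 9.15, 8.58, 8.23 and 8.72 in the controls and 9.0, 9.05, 7.41 and 8.75 in the mutants. Pairs 2 and 3 went opposite ways, with ratios of 0.47 and -0.82, while pairs 1 and 4 had -0.15 and 0.04. By dye order, the mean was -0.49 with the mutant in Cy5 and 0.25 with it in Cy3, and the part of the dye was not tested. The mean over all pairs, -0.12 ± 0.54 (SD, n = 4), was smaller than its spread. Only 1.60% of all tested genes had a larger SD, which includes any difference between dye orders. The other 3 Thrb probes were well above background in at most 2 of 4 control channels and at most 1 of 4 mutant channels, so they set no level.

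The retinoid X receptors are the partners without which the thyroid receptors bind DNA poorly. Rxra was read by a bright probe at chr2:27618411-27618470 with log2 levels of 11.00, 10.72, 10.73 and 10.61 in the controls and 10.47, 10.77, 10.69 and 10.51 in the mutants. Its ratios were -0.53, 0.05, -0.04 and -0.09, a mean of -0.15 ± 0.26 (SD, n = 4), and pair 1 gave most of that mean. The second Rxra probe was well above background in no mutant channel and gave -0.06 ± 0.10. Rxrg, at chr1:169569624-169569683, had levels of 7.55, 7.48, 7.76 and 7.71 in the controls and 6.93, 7.50, 7.48 and 7.43 in the mutants. Its ratios were -0.62, 0.02, -0.28 and -0.27, with a mean of -0.29 ± 0.26 that ranged from -0.49 to -0.15 over the alternatives. For both partners the mutant of pair 1 was the farthest below its littermate and pair 2 was at 0.02 to 0.05. With the mutant in Cy5 and in Cy3, the means were -0.29 and -0.02 for the bright Rxra probe and -0.45 and -0.13 for Rxrg.

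Klf9 encodes a zinc-finger transcription factor that T3 induces directly in neurons and oligodendrocytes. Its brighter probe, at chr19:23240138-23240197, gave log2 levels of 12.05, 11.77, 12.15 and 11.90 in the controls and 12.15, 11.46, 11.71 and 12.14 in the mutants. The ratios of 0.10, -0.32, -0.45 and 0.24 split evenly between higher and lower, and their mean was -0.11 ± 0.33 (SD, n = 4). The upstream probe printed above gave 0.06, 0.05, -0.27 and -0.39, a mean of -0.14 ± 0.23. The probes of Klf9 differed by 0.03 ± 0.43 on average and had opposite signs in pair 2, where the brighter one minus the other was -0.37, and in pair 4, where it was 0.63.

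Hr, the hairless gene, encodes a nuclear corepressor and is among the genes most sensitive to T3 in the brain of young rodents. Its probe, at chr14:70972141-70972200, gave log2 levels of 7.56, 7.51, 7.83 and 8.20 in the controls and 7.52, 7.43, 7.69 and 7.81 in the mutants. The ratios were -0.04, -0.08, -0.14 and -0.39, a mean of -0.16 ± 0.16 (SD, n = 4). All were below 0, yet the spread was as large as the mean and the groups overlapped. Neither direct target therefore had a difference near that of Dio2. The mean of Hr was about as large as the median SD of all genes, 0.16, but that SD describes single pairs and not means. Of all tested genes, 6.39% had a lower mean ratio than Hr and 13.2% a lower one than Klf9.

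**Figure D2:**
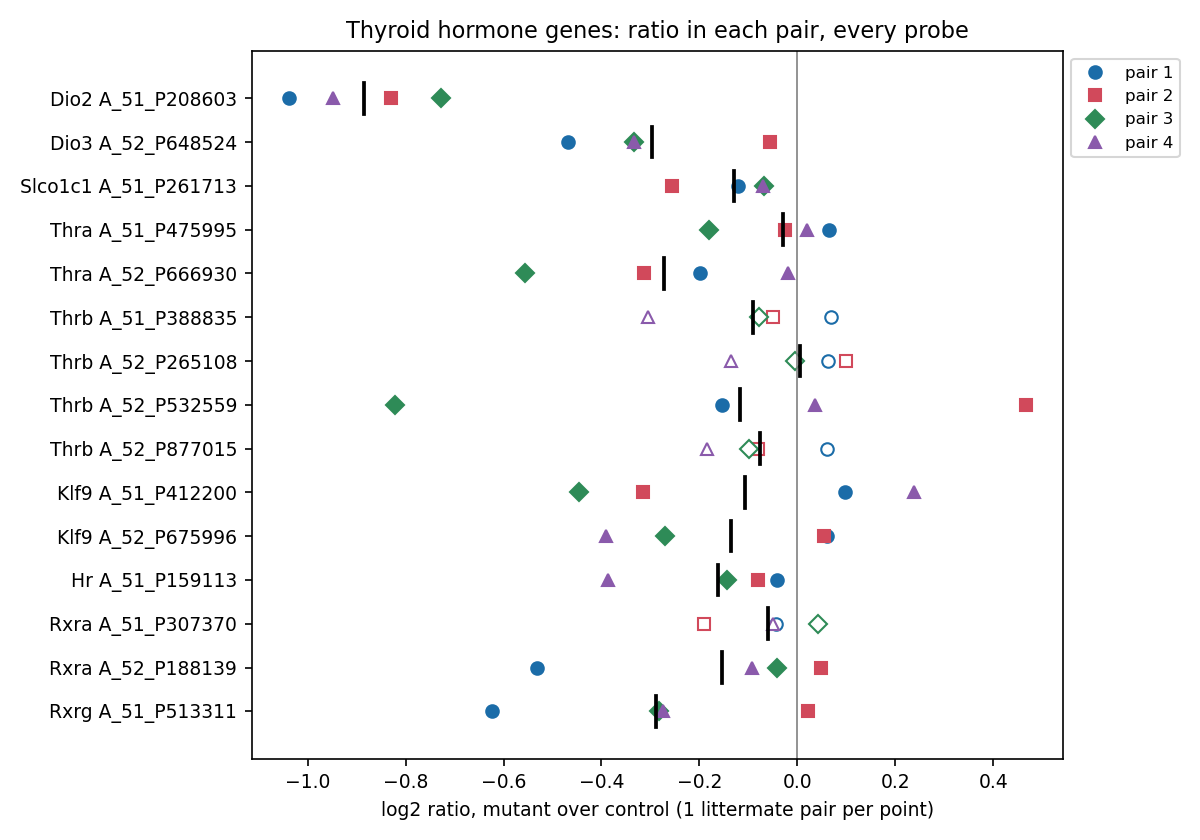
Log2 ratio of mutant over control (horizontal axis) for all 15 probes, with 1 symbol per littermate pair and a black bar at the mean; filled symbols are probes that passed the filter on dim spots and open symbols those that did not. The Dio2 pairs lie between -1.04 and -0.73, and every other probe has at least 1 pair at or above -0.07.

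Set side by side, all 9 members passed the filter with at least 1 probe, and the fit over all genes called 1 of them lower (Dio2) and none higher. Of all 18025 genes, that fit called 1.03%, with 0.588% higher and 0.444% lower; since the rule used this contrast, nothing is read from the count. Without Dio2, which chose the set, ratios were below 0 in all 4 pairs for 3 of 8 members (Dio3, Slco1c1 and Hr) and above 0 in all pairs for none; Dio3 passed the filter only through the controls. Over all genes 7.33% were below 0 and 7.76% above 0 in all pairs, and nothing is read from the members' count. The levels of mutants and controls did not overlap for 1 member, Dio2, while mutants lay wholly below controls in 1.82% of genes and wholly above in 2.17%. The mean ratio was below 0 for all 9, and the median over members was -0.15, or -0.14 without Dio2, beside 0.00 over all genes. Leaving out pair 3, in which all 9 members were below 0, left 6 of the 9 means below 0. In the other pairs 7, 6 and 6 members were below 0.

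Other genes of the pathway were taken from lists of transporters and hormone-metabolizing enzymes, receptor partners and coregulators, and genes known to respond to T3 in brain. Of 14 transporters, binding proteins and enzymes, 10 were tested and none was called in either direction, with a median log2 ratio of 0.01. The smallest p belonged to Sult1a1, a sulfotransferase, with -0.85, -0.37, -0.53 and -0.11, a mean of -0.46 ± 0.31 (SD, n = 4) and a limma adjusted p of 0.117; its mutant and control levels did not overlap. Slc3a2, the heavy chain of the amino acid transporters that also carry T3, had 0.12 ± 0.13 (limma adjusted p 0.709). Its other probe had -0.03 ± 0.24. The transporter Slco1a4 had -0.09 ± 0.16 (adjusted p 0.772). Slc7a8, a light chain of those transporters, had 1.08 in pair 2 and -0.01, 0.12 and -0.11 in the others. It was called only when pair 4 was left out, at 0.57. The carrier protein gene Ttr swung from -0.94 in pair 2 to 0.29, 0.62 and 0.70 in the others. It is also a marker of choroid plexus, whose 9 tested markers had medians of 0.13, -0.59, 0.40 and 0.56 in pairs 1 to 4; their part in the Ttr values was not tested.

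All 15 receptor partners and coregulators were tested, none was called, and their mean ratios lay between -0.09 and 0.07 with a median of -0.01. Rxrb, the remaining retinoid X receptor, had -0.09 ± 0.15 (SD, n = 4; limma adjusted p 0.808). Hdac3, the deacetylase of the corepressor complex, also had a mean of -0.09 ± 0.15 (adjusted p 0.787), and the coactivator gene Ncoa1 had 0.05 ± 0.14 (adjusted p 0.871). None of these differences exceeded its spread between pairs.

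Of 20 genes known to rise with T3 in brain, 1 was called higher (Thrsp), none lower, and 13 had a mean below 0. Over all genes 0.588% were called higher and 0.444% lower. The list was drawn up with earlier results of these data known, so nothing is read from its count of calls. The median was -0.03, beside 0.00 over all genes. The 4 genes of the list that also served here as Purkinje neuron markers had mean ratios near 0. Pcp2 had -0.05 ± 0.04 (SD, n = 4), Calb1 0.00 ± 0.15, Rora -0.02 ± 0.11 and Itpr1 0.14 ± 0.29. These genes encode, in turn, a G protein regulator, a calcium buffer, a nuclear receptor and a calcium release channel. Pcp2 was below 0 in all 4 pairs, as were 7.33% of all genes. The myelin genes Mobp, Mag and Mbp had means below 0 that were not called. Mobp had -0.28 ± 0.20 (limma adjusted p 0.398), Mag -0.22 ± 0.41 (adjusted p 0.628) and Mbp -0.28 ± 0.40 (adjusted p 0.646). Their other tested probes had -0.32 and -0.28 for Mobp, -0.38 for Mag, and -0.29 and -0.01 for Mbp. Myelin ratios stood beside an oligodendrocyte marker list, which shares these genes, with 12 of 12 tested, none called and a median of -0.25. In that list 11 means were below 0 and 1 above. Its summed linear signal was 207000 to 262000 in mutants and 250000 to 305000 in controls. The part of oligodendrocyte content in the myelin values was not tested.

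Thrsp, best known from liver and fat as a gene that T3 induces for lipid synthesis, went the opposite way to Dio2. Its log2 levels were 12.31, 12.39, 12.61 and 12.84 in the controls and 13.74, 13.70, 13.62 and 14.21 in the mutants, with no overlap. It rose by 1.43, 1.32, 1.02 and 1.37 on the log2 scale, a mean of 1.28 ± 0.18 (SD, n = 4) or 2.43-fold, with a limma adjusted p of 0.00704 and a range of 0.000636 to 0.0229 over the alternatives. Nrgn, which encodes a calmodulin-binding protein of dendrites and is a much used T3 target in forebrain, had no stable value, with ratios of -2.75, 0.90, 1.68 and 0.46. The control of pair 1 was at 12.24 and the other 3 controls at 9.06 to 9.40. Without pair 1 Nrgn was called higher at 1.18 (limma adjusted p 0.0401), and without pair 3 it was called lower at -1.04 (adjusted p 0.0497). Both are fitted ratios with a dye term, not means of the remaining pairs. Pair 3 and pair 1, each then alone in its dye order, weighed as much as the other remaining pairs together. In the fit without pair 3, the ratios of pairs 2 and 4 were above 0.

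Of 6 genes known to fall with T3 in brain, 1 was called higher, 1 lower and 4 neither, with a median of 0.01. The shares over all genes were 0.588% higher and 0.444% lower. This list too was drawn up with earlier results of these data known, so nothing is read from its count of calls. Tnc, which encodes the extracellular matrix protein tenascin C of immature and reactive astroglia, rose by 2.17, 2.58, 2.02 and 1.98, a mean of 2.19 ± 0.27 (SD, n = 4) and a limma adjusted p of 0.00431. Its log2 levels were 9.31 to 9.50 in controls and 11.33 to 12.02 in mutants. Both other Tnc probes passed the filter only through the mutants, with 3 and 0 of 4 control channels well above background. They entered only the alternatives that used every tested probe. The mean over probes gave Tnc 1.23, so the size of its rise depended on the probe. Mamdc2, a gene of a secreted protein, went the other way at -0.50, -0.80, -0.50 and -0.97, a mean of -0.69 ± 0.23 and an adjusted p of 0.0160; it was not called without pair 1 (0.104) or without pair 3 (0.0916). Col6a1, a collagen gene, had -0.06 ± 0.14 (adjusted p 0.878), the sperm tail gene Odf4 0.04 ± 0.10 (adjusted p 0.928) and the cell adhesion gene Ncam1 0.01 ± 0.20 (adjusted p 0.989). Thrsp, Tnc and Mamdc2 were the only genes called in both T3-responsive lists together, and the absence of a call does not show the absence of a change.

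**Figure D3:**
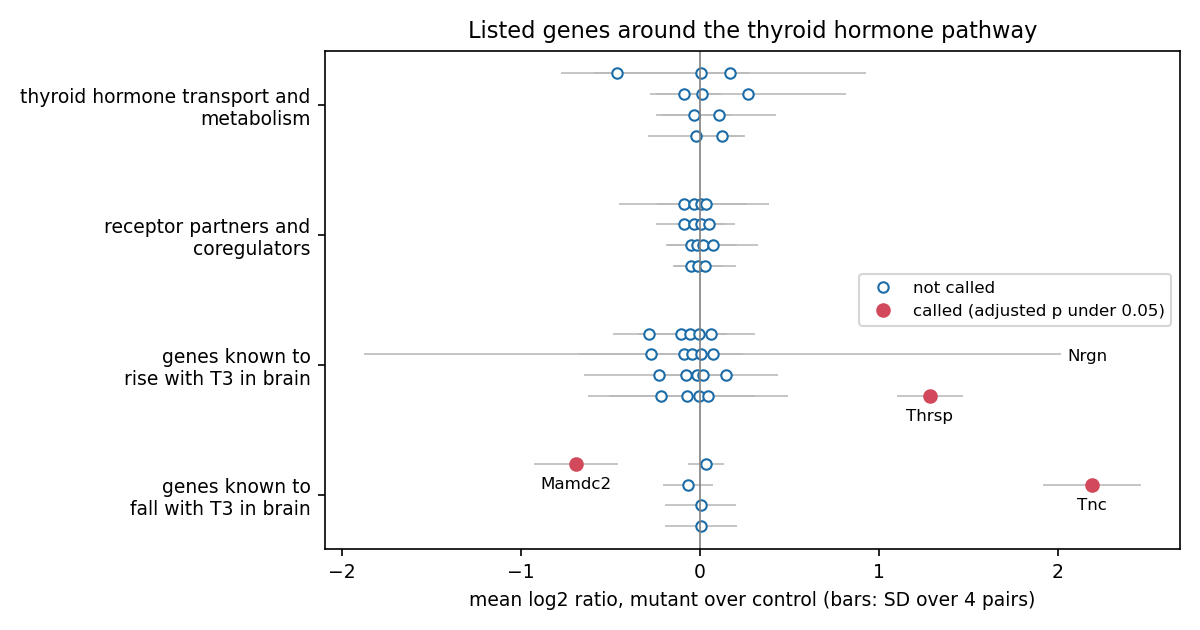
Mean log2 ratio of mutant over control (horizontal axis) for each tested gene of the 4 pathway lists, with bars for the SD over pairs; filled points were called at an adjusted p under 0.05 and the vertical position within a list has no meaning. Thrsp at 1.28, Tnc at 2.19 and Mamdc2 at -0.69 stand out from lists whose medians lie between -0.03 and 0.01.

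Because Dio2 is made by astroglia, its ratio is given beside 16 astroglia markers, all tested and all above background on every array. Of these, 2 were called higher, Gfap at 1.47 ± 0.35 (SD, n = 4) and Aldh1l1 at 1.50 ± 0.23. Called lower were 4, Slc1a2 at -0.57 ± 0.11, Aqp4 at -0.54 ± 0.26, S100b at -0.56 ± 0.09 and Ndrg2 at -0.72 ± 0.26. Over all genes 0.588% were called higher and 0.444% lower. Gfap and Aldh1l1 encode a filament protein and a folate enzyme, while Slc1a2 encodes a glutamate transporter, Aqp4 a water channel and S100b a calcium-binding protein. The other 10 were not called. Among them Gja1 had -0.84 ± 0.61, a mean near that of Dio2, and its mutant and control levels did not overlap. Gdf10 had 0.87 ± 0.46. Over the 16 markers, 5 means were above 0 and 11 below. The marker list was drawn up with earlier results of these data known, so nothing is read from its counts of calls. The median over the markers was -0.36, and it was -0.31, -0.48, -0.30 and -0.33 in pairs 1 to 4. Dio2 was below that median in every pair, by -0.73, -0.35, -0.43 and -0.62, a mean difference of -0.53 ± 0.18. The set was chosen because Dio2 was lower in these same pairs, so nothing is read from that difference. The median also pools markers that rose with markers that fell. In pairs 2 and 4, 1 of the 16 markers had a ratio below that of Dio2, and in pairs 1 and 3 none had. The summed linear signal of the markers was 296000 to 356000 in mutants and 393000 to 436000 in controls; the part of astroglial content or state in the Dio2 value was not tested.

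Slco1c1 has endothelium as a second source. The 13 endothelium markers had no calls and a median of -0.08, with 12 means below 0 and 1 above. Their summed signals were 26200 to 39100 in mutants and 35400 to 38200 in controls. The part of endothelial content in the Slco1c1 value was not tested. No marker was called among the 10 of Purkinje neurons (median -0.01), the 10 of granule neurons (0.01), the 10 of microglia (-0.04) or the 9 of choroid plexus (0.14). All tested Purkinje and granule markers were above background on every array of this tissue labelled cerebellum, with summed signals of 366000 to 473000 and 225000 to 272000 over both groups.

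**Figure D4:**
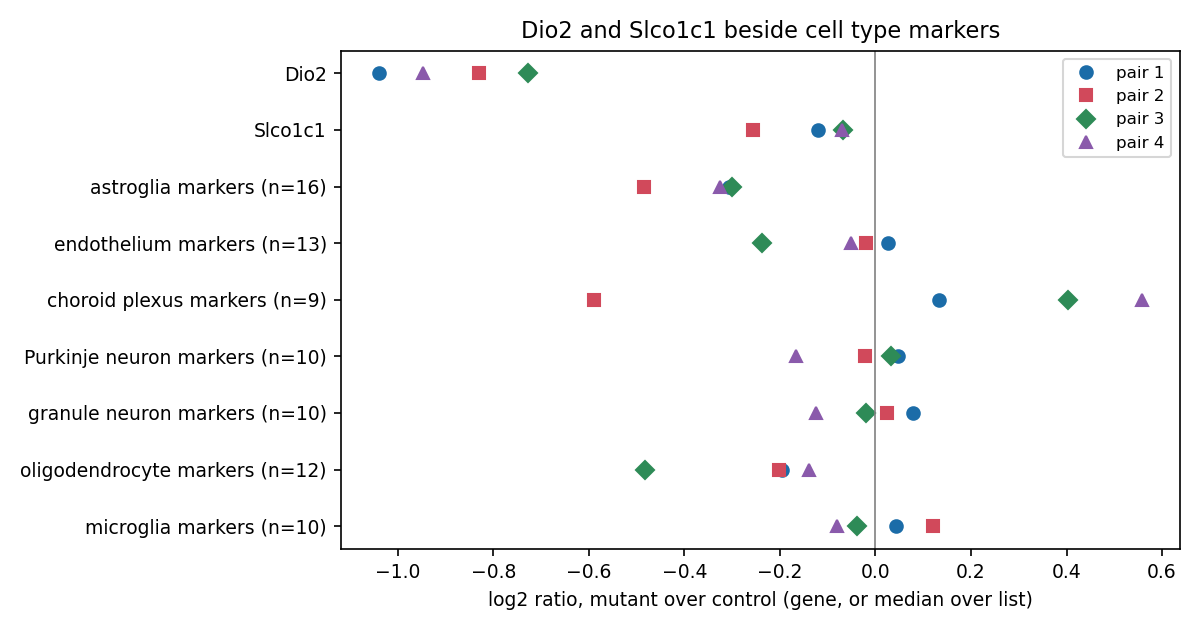
Log2 ratio of mutant over control (horizontal axis) in each littermate pair for Dio2 and Slco1c1, and the median over each marker list with the number of tested markers in brackets. Dio2 lies left of the astroglia median of its own pair in all 4 pairs, whereas Slco1c1 lies right of it in all 4. The fall of Dio2 chose the set, so nothing is read from its place.

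The genes whose ratios were most like those of Dio2 were found by the root mean square difference over the 4 pairs among 17996 genes. They were Cibar2 (0.0853), Nkain4 (0.0924), 2810032G03Rik (0.0999), Maob (0.113) and Luzp2 (0.124), in log2 units. Maob, which encodes an enzyme of amine breakdown, had ratios of -1.09, -0.73, -0.54 and -0.90. Nkain4, whose product binds the sodium pump, had -0.91, -0.73, -0.68 and -1.03, and Luzp2, a leucine zipper gene, had -1.03, -0.69, -0.83 and -0.77. The likeness rests on 4 pairs and mostly on the mean, which was between -0.87 and -0.81 in all 5 genes.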

How the data were processed

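RNA of 4 littermate pairs was labelled from 500 ng of total RNA per channel and hybridised to 2-colour Agilent arrays, all on 1 slide, per the labels and the file headers. The deposited files hold linear spot and background intensities from Feature Extraction 10.5.1.1, processed intensities, and log10 ratios of Cy5 over Cy3 made by the scanner software, per the file headers. The deposited value table holds the same log10 ratios turned to mutant over control (largest difference 4.84e-06). Probe positions are mm9, per the file headers.

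Mean spot signals were background-corrected by normexp (offset 50) and normalized by loess within arrays (R 4.3.3, limma 3.58.1; data.table, version 1.17.8; jsonlite, version 2.0.0). Spots with an outlier flag (143 to 248 per array) were left out, and none was saturated. Levels are channel values after loess and Aquantile scaling; levels of different probes are not compared. Between 26291 and 28907 probes per channel were well above background. A probe was tested if it was so in all 4 mutant or all 4 control channels and 3 or more arrays gave it a value. The brightest probe stood for a gene, which left 18025 genes. limma fitted a dye and a genotype term, and genes with a Benjamini-Hochberg adjusted p under 0.05 were called (106 higher, 80 lower). The number of arrays limits the precision. The statistics were tested on simulated data.

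The members and lists were chosen with earlier results of these data known. Named were all members with every probe, each called gene of a pathway list and the 3 others with the smallest p, the 5 genes most like Dio2, and Dicer1. Slc7a8, Ttr, Pcp2, Calb1, Rora, Itpr1, Nrgn and the astroglia markers were picked for naming with their values in view. The lists came from textbook knowledge. Alternatives changed the background, signal, normalization, probe, filter, model and pairs. With a pair left out the dye term stayed in the fit, and the values given are its fitted ratios. The pair then alone in its dye order weighed as much as the other remaining pairs together.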

Additional observations from a re-analysis of the deposited data

How the results depend on the processing

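Dio2 stayed between -0.96 and -0.81 under all 16 alternatives computed for single genes, but not all of these could move it. Changes to the probe average, dim filter, dye term, variances and replicate block left its ratio at -0.89, as Dio2 has 1 probe and balanced dye orders. The processed signals and the value table both gave -0.90. Dio2 was called in each alternative except without pair 1, where its ratio was -0.81 and no member was called. The cause was not tested, and as Dio2 chose the set, nothing is read from its calls. No other member was called under any alternative. Thra ranged from -0.15 (mean over probes) to 0.03, Thrb from -0.28 to 0.05, Klf9 from -0.25 to 0.03, Slco1c1 from -0.18 to -0.06, Hr from -0.24 to -0.09, Rxra from -0.28 to -0.03 and Rxrg from -0.49 to -0.15. Dio3 had -0.75 with the processed signals and with the value table, -0.19 with flags after normexp, and dropped out under the stricter filter. Over all genes, outlier flags after normexp gave 50 higher and 32 lower, and the processed signals and the value table gave 49 lower each. Leaving out 1 pair gave 44 to 215 higher and 13 to 127 lower; without pair 1 the counts were lowest. The fit with no replicate block gave 96 higher and 66 lower and still called Dio2; each array is 1 pair, so the ratios are paired by design. Among genes known to fall with T3, 1 was called with flags after normexp, where Mamdc2 had -0.59 and an adjusted p of 0.0772, and 1 to 2 when a pair was left out. The list of genes that rise with T3 had 1 to 2 calls and the transport list 0 to 1 when a pair was left out. Ncam1 turned sign, to -0.0148 with flags after normexp and to -0.0132 with the mean over probes, and ranged from -0.0162 to 0.0270 when a pair was left out; its adjusted p was at least 0.882 throughout. With 4 arrays, differences of the size of the dim genes Dio3, Hr and Rxrg are measured with an SD of 0.16 to 0.26.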
